A study of Mus musculus with 4 samples.

Results

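The MAP kinase cascade genes were the 43 protein-coding genes of the mouse gene reference (GRCm38.p6) whose symbol is Mapk, Map2k, Map3k or Map4k followed by a number, out of 21900 coding genes. Genes were taken into the set by name alone, and those without peaks were kept, but the set was chosen with earlier results of these data known. Elavl binding sites in these genes were read from HITS-CLIP, a method that fixes RNA to its bound protein with ultraviolet light, recovers the protein, and sequences the RNA that comes with it. There were 3 samples of mouse brain cortex, which share 1 deposited list of peaks, and 1 sample of N2A cells, a mouse neuroblastoma line, with a list of its own. The name of the cortex list carries the term 2month, which the labels do not explain. Linkers were degenerate and 25 nt long in cortex and 7 nt in N2A. The sources used here do not give the strain, sex or genotype of the mice, the antibody or any treatment. Each peak ends 50 to 51 nt past its start and carries the p-value its authors' peak calling gave it, and a smaller p-value marks a stronger peak within its list.

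MAP kinase cascades relay signals through kinases that phosphorylate one another in turn. MAP4Ks and MAP3Ks receive signals from small GTPases and receptors, MAP3Ks activate MAP2Ks, and each MAP2K activates particular MAP kinases. The ERK arm carries growth factor and synaptic activity signals, the JNK and p38 arms respond to stress and cytokines, and in neurons JNK signalling also takes part in axon growth and in the response to axon injury. Elavl proteins (Hu proteins) bind U-rich and AU-rich RNA, in introns and in the untranslated region at the end of mRNAs, and affect splicing, stability and translation.

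There were 97775 cortex peaks and 7335 N2A peaks in all, 13.3 times as many in cortex. The cascade genes held 388 cortex peaks, 0.397% of the list (Wilson 95% interval 0.359 to 0.438), and 25 N2A peaks, 0.341% (0.231 to 0.503), a ratio of 15.5. The lists give no read counts, and depth is unknown. No value belongs to a single sample, so the spread between replicates is unknown, and differences between the lists were not tested. Intervals cover counting error of peaks only, since peaks of 1 gene share a transcript and are not independent. PCR copies of a fragment cannot be seen in the lists. Among markers of cortical cell types, peaks in the cortex list lay in 5 of 5 excitatory neuron genes, 4 of 5 interneuron genes, 4 of 4 astrocyte genes, 4 of 4 oligodendrocyte genes and 1 of 4 microglia genes, and in the N2A list in 0 of these. Over all coding genes the shares were 40.8% in cortex and 14.5% in N2A. Of 7 sympathoadrenal and neuroblastoma genes, 4 had N2A peaks, among them Gata2, Hand2 and Lin28b, and 2 had cortex peaks. Lin28b had 4 peaks in each list. Th and Dbh, which define catecholamine-producing cells, had 0 peaks in both lists.

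Cortex peaks lay in 31 of the 43 cascade genes (72.1%), where 40.8% of all coding genes had at least 1. N2A peaks lay in 10 (23.3%), where the background was 14.5%. All 10 also had cortex peaks, so 10 genes were in both lists (background 13.3%) and 0 had N2A peaks only (background 1.23%). Another 21 had cortex peaks only (background 27.5%), and 12 had no peak (background 57.9%). In all coding genes, 91.5% of those with N2A peaks also had cortex peaks. A cascade gene with cortex peaks held a median of 9, with a range of 1 to 67, against a median of 4 for all coding genes with cortex peaks. In N2A the medians were 2 and 1. With peaks of a p-value under 0.01 alone, 29 cascade genes had cortex peaks (background 33.1%), 6 had N2A peaks (background 10%) and these 6 were in both lists (background 8.85%). Among the 6 was Map3k12, whose 3 N2A peaks all lay on the strand of a neighbouring gene, Pcbp2.

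**Figure D1:**
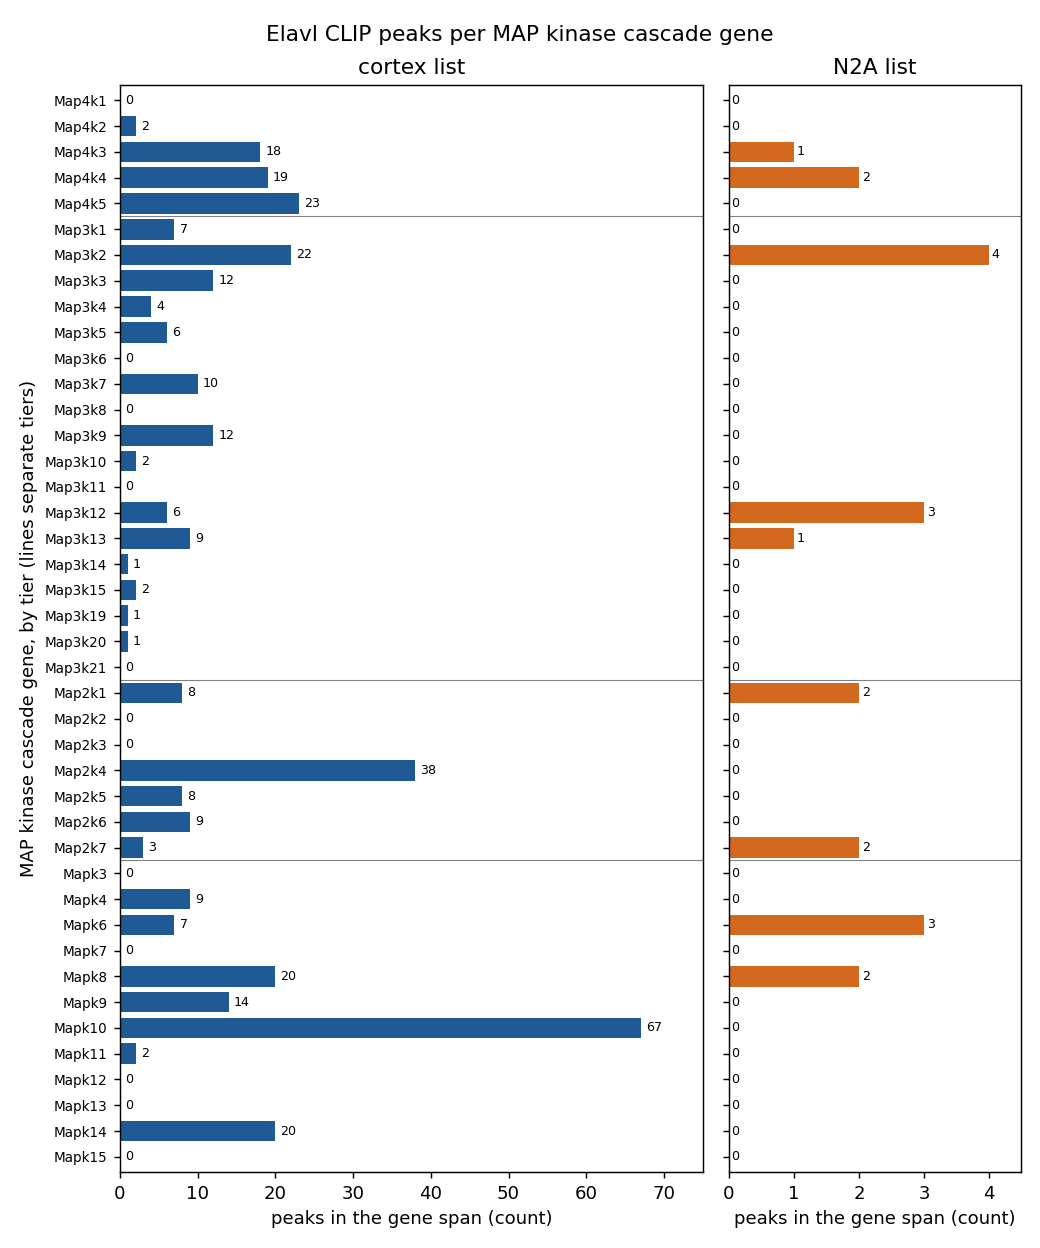
Number of Elavl peaks (x axis, count) in the span of 42 of the 43 MAP kinase cascade genes (y axis, by tier), in the cortex list (left) and the N2A list (right). Bars give counts in 1 pooled list each, so there are no error bars. Mapk10 has the longest cortex bar, at 67 peaks, and 0 N2A peaks, whereas Map3k2 has 22 and 4.

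Cascade genes were longer than other coding genes, with a median span of 57.1 kb against 17.1 kb. The 12 genes without a peak had a median span of 14.7 kb and none was longer than 37 kb. Read within classes of span length, the cortex share was 11 of 11 for cascade genes of 50 to 100 kb, where 65.8% of all coding genes had a peak. At 100 kb or more it was also 11 of 11, where 78.7% had one. The longest class includes Map3k15 (135 kb), whose 2 cortex peaks both lay in the span of another coding gene, Pdha1, on the Pdha1 strand. With peaks touching no other gene, Map3k15 had 0. Between 10 and 50 kb it was 7 of 15 (46.7%), beside a background of 45.7%. Under 10 kb it was 2 of 6, beside 15.7%. Between 10 and 50 kb the cascade genes were thus close to the background, and in the other 3 classes their cortex share was above it. In N2A the counts were 1 of 6, 2 of 15, 4 of 11 and 3 of 11 from the shortest class to the longest, where the backgrounds were 5.48%, 16.7%, 26.2% and 24.0%. The number of peaks followed no single order against the background: cascade genes of 50 to 100 kb with cortex peaks held a median of 12, where coding genes of that class held 7, and those of 100 kb or more held 9, where coding genes held 15.

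**Figure D2:**
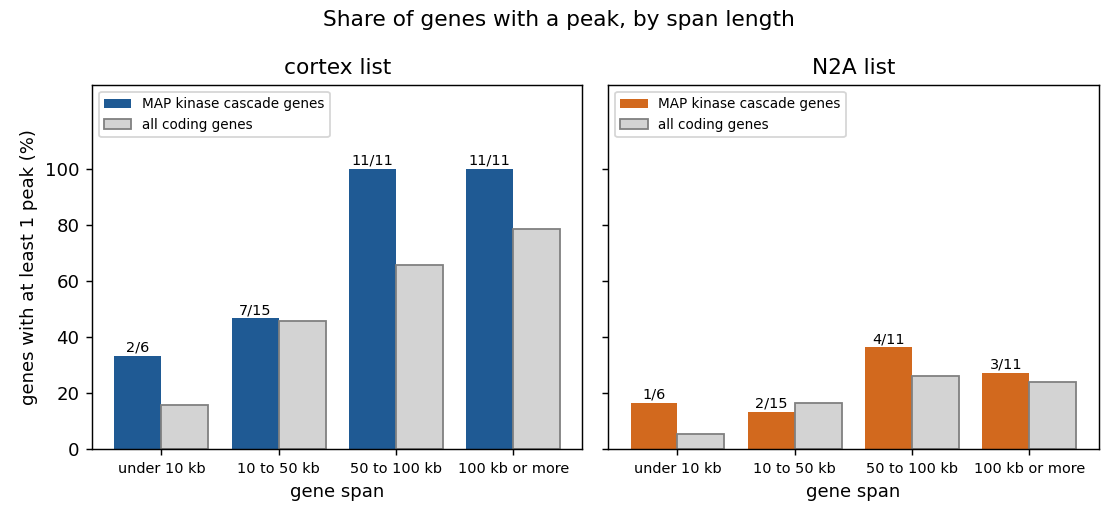
Share of genes with at least 1 peak (y axis, %) by length of the gene span (x axis), for the cascade genes (coloured bars, with the count of genes above each) and for all coding genes (grey bars), in the cortex list (left) and the N2A list (right). All 22 cascade genes of 50 kb or more have cortex peaks, though those of Map3k15 lie only where its span overlaps Pdha1. Between 10 and 50 kb the cortex shares of both gene sets are close (46.7% and 45.7%).

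The MAP kinases themselves held 165 of the 388 cortex peaks in 8 of 13 genes, and 10 of the 25 N2A peaks in 3 genes. Mapk3, which encodes ERK1, had 0 peaks in either list and a span of 6.19 kb.

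The JNK kinases differed in the number of peaks and in where the strongest lay. Mapk10 (JNK3, the form made mainly in neurons) had the highest cortex count of all cascade genes, 67 peaks over 304 kb or 22.0 per 100 kb, and 0 N2A peaks. Its strongest peak (p-value 6.69e-76) was at chr5:103211074-103211124 (minus strand), 1.48 kb from the gene start and 303 kb from the gene end. The next 3 lay within 5 kb of the gene end, with p-values from 1.11e-17 to 5.90e-22. Mapk9 (JNK2) had 14 cortex peaks, or 35.3 per 100 kb, with its 3 strongest all near the gene end. The strongest of these, at chr11:49885498-49885548 (plus strand), had a p-value of 5.53e-67, and N2A had 0 peaks in this gene. Mapk8 (JNK1) had 20 cortex peaks and was the only JNK gene with N2A peaks. The strongest cortex peak of Mapk8 was at chr14:33380222-33380273 (minus strand, p-value 3.52e-27), with an N2A peak 31 nt away at chr14:33380140-33380190 (p-value 0.0859). The second N2A peak of Mapk8, at chr14:33382056-33382106, had a p-value of 0.00452. Each of the 3 JNK genes therefore had cortex peaks in its last 5 kb, 7 in Mapk10, 5 in Mapk9 and 7 in Mapk8.

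The p38 kinases had peaks in cortex alone, and in 2 of 4 genes. Mapk14 (p38 alpha, the broadly made form) had 20 cortex peaks, or 35.0 per 100 kb, but its lowest p-value was 1.66e-06 and 1 peak lay within 5 kb of the gene end. Mapk11 (p38 beta) had 2 cortex peaks with a lowest p-value of 0.0265, while Mapk12 and Mapk13 (p38 gamma and delta) had 0. Among the atypical kinases, Mapk6 (ERK3) had 7 cortex peaks and 3 N2A peaks in 23.2 kb. The 4 strongest cortex peaks of Mapk6 lay 0.058 to 1.17 kb from the gene end, with p-values from 4.01e-22 to 2.37e-09, and the 3 N2A peaks lay 0.039 to 1.05 kb from it, with p-values from 0.0325 to 0.0849. The cortex and N2A peaks of Mapk6 were therefore in the same stretch, weak in the N2A list. Mapk4 (ERK4) had 9 cortex peaks and 0 in N2A, and its strongest lay 0.189 kb from the end of a 137 kb span. Mapk7 (ERK5) and Mapk15 had 0 peaks and spans of 5.46 and 5.42 kb.

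Of the MAP2K genes, 5 of 7 had cortex peaks and 2 had N2A peaks. Map2k4 (MKK4, which activates JNK and p38) had 38 cortex peaks over 100 kb, the next highest count after Mapk10, and 0 N2A peaks. Its strongest peak (p-value 1.58e-37) lay inside the gene, 42.8 kb from the end, at chr11:65731051-65731101 (minus strand). The next strongest 2, with p-values of 2.20e-24 and 5.74e-17, lay 0.734 and 1.32 kb from the end. Map2k1 (MEK1, which activates the ERK arm) had 8 cortex peaks, the strongest 0.390 kb from the gene end at chr9:64186159-64186209 (minus strand, p-value 7.07e-110). The stronger of 2 N2A peaks in Map2k1, at chr9:64186076-64186127 (p-value 1.33e-05), lay 31 nt from that cortex peak. The other N2A peak lay near the gene start, at chr9:64249258-64249309 (p-value 0.0540), and shared 50 nt with a cortex peak of p-value 9.36e-22. Map2k1 thus had peaks near both ends of its 67.8 kb span in both lists, and Map2k2 (MEK2), with a span of 18.8 kb, had 0 peaks.

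Map2k7 (MKK7, which activates JNK) was one of 2 cascade genes under 10 kb with peaks, and the only one of these with N2A peaks. Its 2 N2A peaks shared 43 and 26 nt with cortex peaks, and the lowest p-values were 0.00521 in cortex and 0.00643 in N2A. Map2k6 (MKK6, which activates p38) had 9 cortex peaks and Map2k5 (MEK5, which activates ERK5) had 8. The lowest p-value was 1.69e-14 in Map2k6 and 0.000867 in Map2k5, and both had 0 N2A peaks. Map2k3 (MKK3) had 0 peaks. By arm, all 5 JNK-arm genes (Mapk8, Mapk9, Mapk10, Map2k4 and Map2k7) had cortex peaks, 142 together. The p38 arm had them in 3 of 6, 31 together, and over all coding genes the share was 40.8%. Of the 142 peaks, 67 lay in Mapk10 and 38 in Map2k4, which was counted under JNK though it also acts on p38. The JNK arm also had the longer genes, with a median span of 69.5 kb, against 15.9 kb for the p38 arm, and the part of span length in these counts was not tested.

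Sequence was at hand only where a peak lay in a RefSeq promoter window, which runs from 250 bases before to 50 bases after an annotated gene start (GRCm38.p6). That held for 2 cascade gene peaks, both from cortex and both at starts inside the gene, and they are shown because Elavl proteins bind U-rich RNA. Capitals mark runs of TTTTT, read as U in RNA, on the strand of the gene.
Map2k4, whole peak, chr11:65745962-65746013, minus strand: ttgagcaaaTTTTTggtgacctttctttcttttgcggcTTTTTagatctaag
Mapk10, part of a peak, chr5:103058343-103058366, minus strand: ctactgcagtgaaccaaccttgga
The Map2k4 peak (p-value 0.0878) held the run at 2 places. The 24 of 51 bases at hand for the Mapk10 peak (p-value 0.0276) held it at none. Over all genes, 37 of the 47 cortex peaks that lay wholly inside a window on its strand held TTTTT (78.7%), as did 1 of 6 N2A peaks, and 5.72% of 52-base stretches cut end to end from all windows held it. Only the gene's own strand was searched, and a match is a description of the letters.

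Among MAP3K genes, 14 of 18 had cortex peaks, 95 in all, and 3 had N2A peaks. Map3k2 (MEKK2, which acts on MEK5) had 22 cortex peaks, the most of this tier, and 4 N2A peaks, but none was strong. Its lowest p-values were 1.65e-07 in cortex, 0.703 kb from the gene end, and 0.0276 in N2A. Map3k13 (LZK) had 9 cortex peaks and 1 N2A peak. In Map3k13 the strongest cortex peak, at chr16:21929910-21929960 (plus strand, p-value 2.67e-21), shared 42 nt with the N2A peak (p-value 0.0140). LZK is the closest relative of DLK, the kinase that starts the response to axon injury.

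The DLK gene, Map3k12, had 6 cortex peaks and 3 N2A peaks in its span, but part of them lay on the strand of a neighbour. Its end overlaps the end of Pcbp2, a gene for a poly(C)-binding protein on the opposite strand of chromosome 15. The strongest cortex peak in the span (p-value 1.79e-184, at chr15:102498741-102498792) and all 3 N2A peaks, the strongest with a p-value of 7.12e-83, lay on the plus strand, which is that of Pcbp2. The other 5 cortex peaks lay on the minus strand, that of Map3k12, and the strongest of these (p-value 1.88e-77, at chr15:102499691-102499742) was 2.04 kb from the Map3k12 end and also within the Pcbp2 span. Counted on its own strand, Map3k12 therefore had 5 cortex peaks and 0 N2A peaks, and the number of cascade genes with N2A peaks was 9.

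Of the MAP3Ks with peaks in cortex alone, Map3k3 (MEKK3) and Map3k9 (MLK1) had 12 each, Map3k7 (TAK1, which acts in cytokine and TGF-beta signalling) had 10 and Map3k1 (MEKK1) had 7. Their lowest p-values ran from 6.87e-13 in Map3k7 to 1.96e-05 in Map3k1. Map3k9 stood out by position, with 9 of its 12 peaks in the last 5 kb, whereas Map3k3 had 0 there. Map3k5 (ASK1) had 6 cortex peaks, Map3k4 had 4, Map3k10 had 2, and Map3k14, Map3k19 and Map3k20 had 1 each. Map3k15 had 2 cortex peaks (lowest p-value 5.92e-21), both within the part of its span that also belongs to Pdha1, a pyruvate dehydrogenase subunit gene, and both on the Pdha1 strand. The reference used here gives no strand for Map3k15, so these 2 peaks decided the strand by which its distances were measured. Without peaks that touch another gene, Map3k15 had 0 and 30 cascade genes had cortex peaks. Map3k6, Map3k8, Map3k11 and Map3k21 had 0 peaks.

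In the MAP4K tier, 4 of 5 genes had cortex peaks, 62 in all, and 2 had N2A peaks. Map4k4 (HGK) had 19 cortex peaks and 2 N2A peaks. Its strongest peaks in both lists covered nearly the same stretch of the plus strand, chr1:40025388-40025438 in cortex (p-value 9.80e-16) and chr1:40025392-40025442 in N2A (p-value 2.40e-22), 0.868 kb from the gene end. Map4k3 (GLK) had 18 cortex peaks, with a lowest p-value of 6.14e-16, and 1 N2A peak (p-value 0.0173), which lay 0.373 kb from the gene end and shared 36 nt with a weaker cortex peak (p-value 0.000116). Map4k5 had 23 cortex peaks, with a lowest p-value of 4.52e-08 and 0 in N2A. Of these, 17 also lay in the spans of long noncoding RNA genes, 16 of them in 4930512B01Rik, whose reference strand is opposite to that of the peaks. Map4k2 had 2 cortex peaks, both in the last 5 kb of a 14.6 kb span, with a lowest p-value of 2.56e-22. Map4k1 (HPK1), a kinase of blood cells, had 0.

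Peaks in the cascade genes lay mostly far from the gene end in cortex and close to it in N2A. Within 5 kb of the gene end lay 86 of 388 cortex peaks (22.2%, Wilson 95% interval 18.3 to 26.6) and 20 of 25 N2A peaks (80.0%, 60.9 to 91.1). In all coding genes the shares were 20.4% and 79.5%, so the cascade genes were near the background in both lists. The median distance to the gene end was 35.0 kb in cortex and 2.24 kb in N2A. At least 1 peak in the last 5 kb was found in 25 of the 43 genes in cortex (background 32.1%) and in 10 in N2A (background 12.5%). The first 5 kb of the genes held 20 cortex peaks (5.15%) and 2 N2A peaks (8%), beside 5.83% and 8.04% in all coding genes. Map3k15 gave 2 of these 20 cortex peaks. Its strand was read from those 2 peaks, which lay on the Pdha1 strand. The start and end of Map3k15 are therefore uncertain in every count of position.

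**Figure D3:**
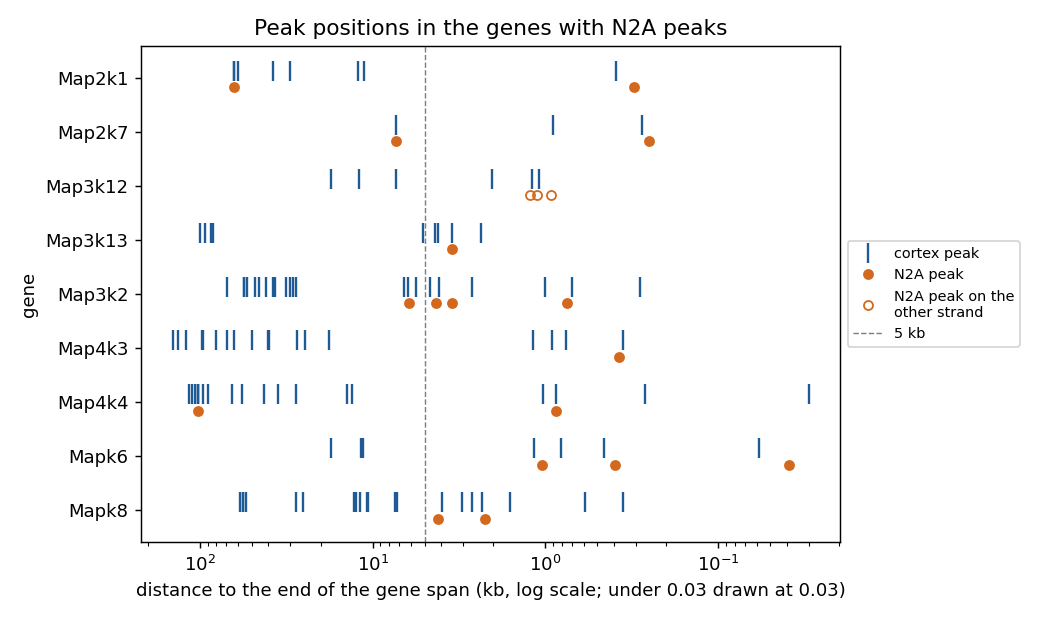
Distance of each peak to the end of the gene span (x axis, kb, log scale, with the gene end to the right) in 9 of the 10 cascade genes with N2A peaks (y axis). Ticks are cortex peaks, circles N2A peaks, open circles N2A peaks on the strand opposite to the gene, and the dashed line marks 5 kb. N2A peaks sit mostly to the right of the line, while most cortex peaks of the longer genes lie to its left, as in Map4k3 with 14 of 18.

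Cortex peaks near the gene end were also stronger. Of the 86 peaks within 5 kb of it, 57 had a p-value under 0.01 (66.3%, 55.8 to 75.4), and of the 302 farther away 137 did (45.4%, 39.8 to 51.0). All coding genes had 67.4% and 46.4%. The strongest cortex peak lay within 5 kb of the gene end in 19 of 31 cascade genes (61.3%), and the share over all coding genes with peaks was 61.4%. The exceptions with the lowest p-values were Mapk10, whose strongest peak was near the start, and Map2k4. In N2A the strongest peak lay near the gene end in 10 of 10 genes, where the share over all coding genes was 82.6%. For Map3k12 that peak was on the strand of Pcbp2.

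**Figure D4:**
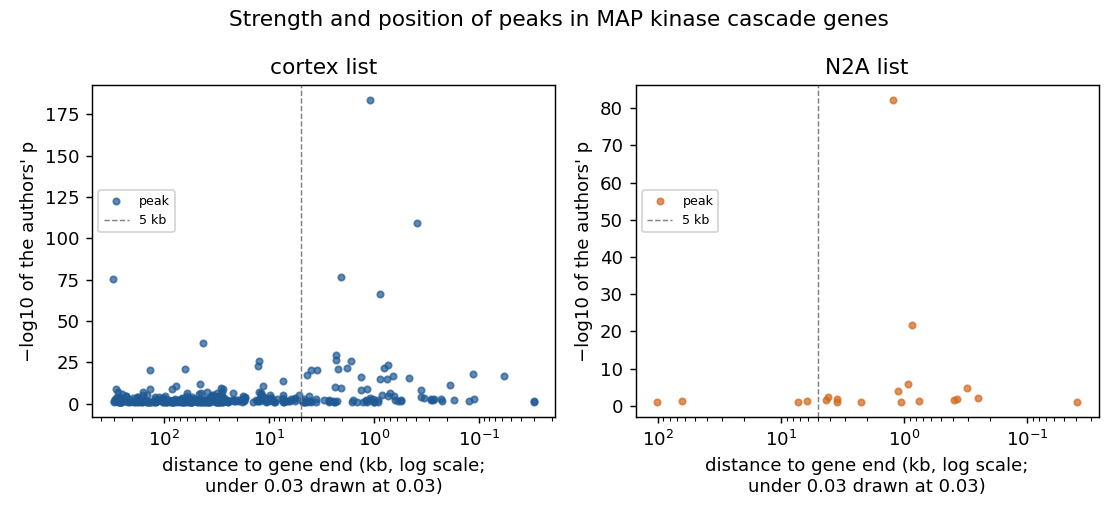
Peak strength (y axis, −log10 of the authors' p-value) against distance to the gene end (x axis, kb, log scale, gene end to the right) for 362 cortex peaks (left) and 20 N2A peaks (right) in 42 of the cascade genes. Points are peaks, and the dashed line marks 5 kb. Most of the tallest cortex points lie within 5 kb of the gene end, and the tall point at the far left is the Mapk10 peak near the gene start. The tallest point in each panel lies in the Map3k12 span on the strand of Pcbp2.

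Because the cortex list was longer, it was also reduced to its 7335 strongest peaks, as many as the N2A list held, an alternative chosen after the data had been seen. These had p-values up to 3.30e-14. They placed 32 peaks in 14 cascade genes (32.6%, where the background was 13.8%), and 25 of the 32 (78.1%, 61.2 to 89.0) lay within 5 kb of the gene end. Over all coding genes the reduced list had 55.1% there (53.9 to 56.2), and the N2A list had 79.5%. At equal list size, the share of cascade gene peaks near the gene end was 78.1% in cortex and 80.0% in N2A, with overlapping intervals. The 2 lists were then equal in size but not in strength, since the N2A list kept p-values up to 0.0997. The part of list size in the difference of position was not tested. The 14 genes included Map2k1, Map2k4, Map2k6, Map3k12, Map3k13, Map3k15, Map4k2, Map4k3, Map4k4, Mapk6, Mapk8, Mapk9 and Mapk10, and 8 of the 14 had N2A peaks. In Mapk6 and Mapk9, 3 peaks each were kept, and all of these were near the gene end. Peaks of 1 gene share a transcript and are not independent.

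The N2A peaks were also set against the cortex peaks one by one. Of the 25, 11 shared at least 1 nt with a cortex peak on the same strand (44.0%, 26.7 to 62.9), in 9 of the 10 genes, and 21 lay within 200 nt of one (84.0%, 65.3 to 93.6). For N2A peaks in all coding genes these shares were 42.5% and 69.2%. In Map3k2, 1 of the 4 N2A peaks was farther away, 606 nt from the nearest cortex peak. Mapk8 was the gene without a shared nucleotide, and its 2 N2A peaks lay 31 and 136 nt from cortex peaks. All 3 N2A peaks in Map3k12 lay within 200 nt of a cortex peak on the Pcbp2 strand, and 1 overlapped it. On the gene's strand alone, 10 of 22 N2A peaks shared at least 1 nt with a cortex peak. The 10 genes with N2A peaks had a median of 13.5 cortex peaks and a median span of 68.6 kb, and the 21 with cortex peaks only had a median of 8 and a span of 72.1 kb.

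Genes that act above, beside and below the kinases were counted in the same way, with 40.8% of coding genes in cortex and 14.5% in N2A as background. Of 16 genes for RAS GTPases, their regulators and RAF kinases, 15 had cortex peaks and 9 had N2A peaks, Hras (a span of 4.09 kb) being the one with none. Braf, a RAF kinase, had 39 cortex and 2 N2A peaks, and Nras, a RAS GTPase, had 7 and 3. Of 15 scaffold and docking genes, 12 had cortex peaks and 1, Tab2, had an N2A peak. Spag9 (JIP4), a JNK scaffold that links kinases to motor proteins, had 46 cortex peaks. The difference between these lists of genes was not tested, and their genes also differ in span length.

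Phosphatases that switch MAP kinases off had cortex peaks in 12 of 15 genes and N2A peaks in 3. Dusp8 had 3 cortex peaks (p-value 6.74e-90), Dusp4 had 2 in cortex and 1 in N2A (p-value 1.26e-47), and Ppm1a had 24 and 3. Kinases activated by MAP kinases had cortex peaks in 7 of 11 genes and N2A peaks in 3, led by Rps6ka3 (RSK2) with 32 cortex peaks and 1 N2A peak. Of 17 transcription factors targeted by MAP kinases, 14 had cortex peaks and 11 had N2A peaks, the highest N2A share of these lists. Mef2a, a factor of neuronal differentiation and survival, had 34 cortex peaks (p-value 1.15e-249) and 4 N2A peaks, and Jund, an AP-1 subunit, had 4 and 3. Myc and Ets1 had N2A peaks only, 4 and 1, as did 1.23% of all coding genes and 0 cascade genes. Expression was not measured, and a gene that a sample does not transcribe can have no peak.

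**Figure D5:**
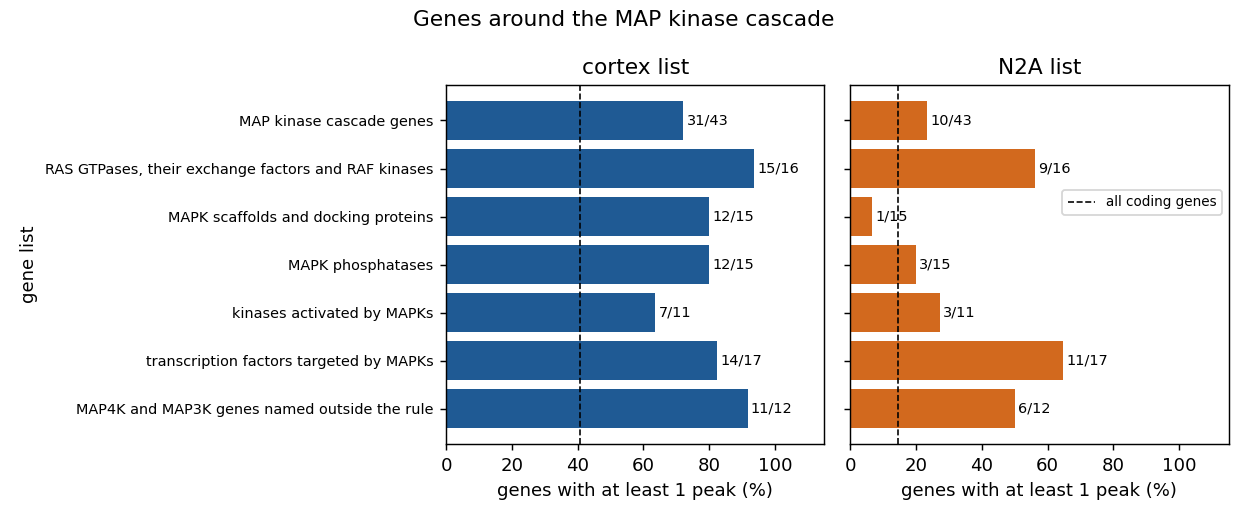
Share of genes with at least 1 peak (x axis, %) in the cascade genes and in 6 lists of related genes (y axis), in the cortex list (left) and the N2A list (right). Bars carry the count of genes with a peak over the genes in the list, and dashed lines mark all coding genes (40.8% and 14.5%). All 7 cortex bars pass the line, and in N2A the scaffold list lies below it with 1 of 15.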

How the data were processed

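HITS-CLIP of Elavl proteins was deposited as 1 peak list for the 3 cortex samples and 1 for the N2A sample. Per the submitters' processing notes, the authors aligned reads with Novoalign (no version given) and named the human build hg19. Chromosome names in the files are those of mouse, and coordinates were read as GRCm38 and are printed as deposited, counted from 1. The deposited p-value of each peak came from the authors' peak calling. The sources used here do not give the caller, filters, any adjustment of p-values, or whether the cortex samples were merged before calling.

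A peak was counted for every gene span (RefSeq, GRCm38.p6) that shared at least 1 nt with it, on either strand. Gene strand came from the RefSeq promoter table for 34 of the 43 genes, and for 6 from the strand of their peaks. The other 3 had neither. Distance to the gene end ran from the peak to the end of the span on the gene's strand. Exons and untranslated regions were not used here. Shares of peaks have Wilson 95% intervals (statsmodels 0.14.6), and no test was made, because each group has 1 list. The counting was tested on simulated peaks.

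The cascade genes and the lists around them were chosen with earlier results of these data known. The genes named with values were the 10 with most cortex peaks, the 10 with the lowest cortex p-values and those with N2A peaks. Other cascade genes are named to account for every gene, and genes of the related lists were named after their values were seen. Of 87 entries in the related lists, 1 symbol (Zak) was not in the reference, where the gene is named Map3k20 and counted as a cascade gene. The planned protein sequences were not used here. Some genes that this rule would name, and their values, are not reported here, though totals include them.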

Additional observations from a re-analysis of the deposited data

How the results depend on the processing

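Counting only peaks on the gene's strand, only peaks touching no other gene, spans extended by 5 kb, or coordinates counted from 0 moved no total of cascade genes or of their peaks by over 1.5 times, nor did merging peaks closer than 50 nt, which was run for the totals of peaks alone. In single genes, the gene's strand alone took Map3k12 from 3 N2A peaks to 0. Peaks touching no other gene took Map3k12 to 0 in N2A as well and from 6 to 3 in cortex, Map4k5 from 23 to 6 and Map3k15 from 2 to 0. With a p-value under 0.01, or the stronger 50% of each list, 29 cascade genes had cortex peaks in both cases, N2A genes and genes in both lists numbered 6 and 5, cortex peaks 194 and 192, N2A peaks 9 and 8, and overlapping N2A peaks 4 and 3. The share of cortex peaks within 5 kb of the gene end was then 29.4% and 29.2%, and that of N2A peaks 100% (9 of 9 and 8 of 8). In both cases 3 of these N2A peaks were those in the Map3k12 span on the strand of Pcbp2. With windows of 2 and 10 kb the shares were 14.2% and 27.8% in cortex and 44.0% and 92.0% in N2A. Requiring 25 nt of overlap left 9 overlapping N2A peaks, and counting peaks within 200 nt gave 21. Cutting the cortex list to the size of the N2A list gave 14 genes, 32 peaks and a share of 78.1%. These changes come with fewer peaks or another window, as the settings are built. Counts in single genes moved by over 1.5 times in 29 of 41 cases under each of the 2 stricter cuts. With the cortex list cut to the size of the N2A list, 30 of 31 single-gene cortex counts moved by over 1.5 times, and 17 fell to 0.

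No paired analysis was possible because the 3 cortex samples share 1 list and N2A is 1 sample. Leaving out a sample was not run, since no list belongs to a single cortex sample.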

Other observations

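Kinases that act as MAP4Ks or MAP3Ks, or alongside them, but carry other names also had peaks. Of 12 such genes, 11 had cortex peaks and 6 had N2A peaks, Mos being the one with none. Tnik, a kinase of the postsynaptic density, had 55 cortex peaks (lowest p-value 2.09e-124) and 2 N2A peaks. Taok1, which phosphorylates MAP2Ks of the p38 arm and acts on microtubules, had 37 cortex peaks (6.31e-162) and 9 N2A peaks (2.76e-08), more N2A peaks than any of the 43 cascade genes. Pak1, a kinase downstream of Rac and Cdc42 in dendritic spines, had 35 cortex peaks with a lowest p-value of 1.03e-287 and 0 in N2A. These genes were named after their values had been seen.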
